A study of Rattus norvegicus with 18 samples.

Results

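This part examines 9 genes of chloride and bicarbonate cotransporters in rat cervical dorsal root ganglia (DRG). Of these, *Slc4a4*, encoding a sodium-bicarbonate cotransporter, was higher after bilateral pyramidotomy with a GFP vector than in naïve rats. The comparisons were GFP vector against naïve, neurotrophin-3 vector against naïve, and neurotrophin-3 against GFP vector. In that order, 0 of 6, 0 of 7 and 0 of 6 other members tested had an unadjusted p under 0.05 by the quasi-likelihood test of edgeR. Of all genes 3.25%, 6.01% and 1.73% did, so a count of 0 among so few members does not set them apart. *Slc12a5* had enough reads only for neurotrophin-3 against naïve rats, and *Slc4a7* had none counted. The members are *Slc12a2*, *Slc12a4*, *Slc12a5* and *Slc12a7* of the cation-chloride cotransporters and *Slc4a2*, *Slc4a3*, *Slc4a4*, *Slc4a7* and *Slc4a10* of the bicarbonate transporters. They were taken by gene symbol, 8 of the 9 with a row among the 15075 RefSeq identifiers of the count table, and *Slc4a4* was chosen by its measured rise after injury in these same rats. Its values between the groups are therefore a description, given with no test. The other members were chosen for their function, but with earlier results of these data known.

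Libraries of poly(A) RNA came from the DRG at C6-C8 of 18 adult lister hooded rats, 6 in each of 3 groups. Naïve rats had no operation and no vector. Rats of the bPYX+GFP and bPYX+NT3 groups had both corticospinal tracts cut in the medullary pyramids (bilateral pyramidotomy, bPYX) and then received, in the forelimb flexor muscles of one side, the viral vector AAV1 carrying under a CMV promoter either GFP or human prepro-neurotrophin-3 (NT3), a growth factor for muscle afferents. Their ganglia were taken 10 weeks after injury. The ganglia of the treated side of each rat were pooled into 1 library, so that a library holds neurons, satellite glia, Schwann cells and the cells of vessels and connective tissue together. The tracts that were cut do not run through these ganglia. Against naïve rats, the injury, the operation and the vector cannot be told apart. Only the comparison of bPYX+NT3 with bPYX+GFP rats, here called the vector comparison, holds them alike.

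The heading of the count table pairs each rat number with a sample number, which matches the description of a titled sample. Read so, it places rats 41, 42, 43, 44, 45 and 49 in the naïve group and rats 5, 15, 18, 21, 52 and 57 in the bPYX+GFP group. Rats 2, 11, 17, 23, 39 and 40 are in the bPYX+NT3 group, and these groups are used here. The title attached to a rat's own count file names another group in 17 of the 18 rats, although those files hold the same counts as the table in 18 of 18 rats. For *Gfap* the study published log2 fold changes of -0.70 for bPYX+GFP against naïve rats and 1.26 for bPYX+NT3 against bPYX+GFP rats. The groups of the heading gave the same values here. With the groups of those titles the log2 fold change of *Slc4a4* was 0.020 for bPYX+GFP against naïve rats. It was -0.084 for bPYX+NT3 against naïve rats and -0.10 in the vector comparison. The differences of *Slc4a4* from naïve rats therefore rest on the groups of the heading, which gave the published values of *Gfap*. By those titles the bPYX+NT3 group is rats 43, 44, 45, 49, 52 and 57, which the heading places in the naïve and bPYX+GFP groups. The -0.10 therefore does not compare the vectors as the heading assigns them. Between 10057787 and 16002410 read-pairs were counted on genes in a rat. The share of read-pairs on no annotated feature was 33.3 ± 0.939% (SD over 18 rats) and was lowest in rat 11 of the bPYX+NT3 group (30.8%) and rat 57 of the bPYX+GFP group (31.7%), which also held the highest shares of ambiguous read-pairs (3.41% and 3.31%).

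Chloride in sensory neurons is set by transporters that use the gradients of sodium and potassium. The sodium-potassium-chloride cotransporter NKCC1 carries chloride into the cell, and primary afferents keep enough of it that opening GABA-A receptors depolarizes their terminals, the basis of presynaptic inhibition. The potassium-chloride cotransporters (KCCs) carry chloride out. The anion exchangers AE2 and AE3 trade intracellular bicarbonate for chloride and so load chloride and acid, whereas the sodium-bicarbonate cotransporters bring in bicarbonate and raise intracellular pH. In a whole ganglion, fewer cells of a type and less RNA per cell cannot be told apart.

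*Slc4a4* (NM_053424) encodes NBCe1, an electrogenic sodium-bicarbonate cotransporter found in glia and epithelia. In naïve rats its level was 117, 123, 126, 130, 134 and 138 CPM (read counts per 1e6 counted on genes, scaled by TMM), in bPYX+GFP rats 148, 155, 158, 160, 162 and 171 CPM, and in bPYX+NT3 rats 112, 130, 145, 148, 150 and 160 CPM. Each of the 6 bPYX+GFP rats lay above each of the 6 naïve rats. Among all genes tested between these groups, 0.241% did not overlap and 0.0431% were higher without overlap. The bPYX+NT3 rats overlapped both other groups, 4 of them lying above every naïve rat and 4 below every bPYX+GFP rat. The single bPYX+NT3 rat below the naïve range was rat 11, with 112 CPM.

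The naïve mean of *Slc4a4* was 128 ± 7.73 CPM (SD, n = 6), that of the bPYX+GFP group 159 ± 7.62 CPM and that of the bPYX+NT3 group 141 ± 17.1 CPM. The log2 fold change of *Slc4a4* in bPYX+GFP against naïve rats was 0.32 (SE 0.053), a ratio of 1.25. It was 0.14 (SE 0.080) for bPYX+NT3 against naïve rats and -0.18 (SE 0.077) in the vector comparison. The bPYX+GFP rats enter the first and the last of these, and the naïve rats the first and second, so the values are not independent of each other. Without rat 11 the latter differences were 0.20 and -0.12, and without rat 57 the first was 0.31. Rats of the naïve and bPYX+GFP groups were close to each other in *Slc4a4*, with coefficients of variation of 6.05% and 4.79%, against 11.2% to 39.8% for the other members in the same groups. In bPYX+NT3 rats its coefficient of variation was 12.1%.

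**Figure D1:**
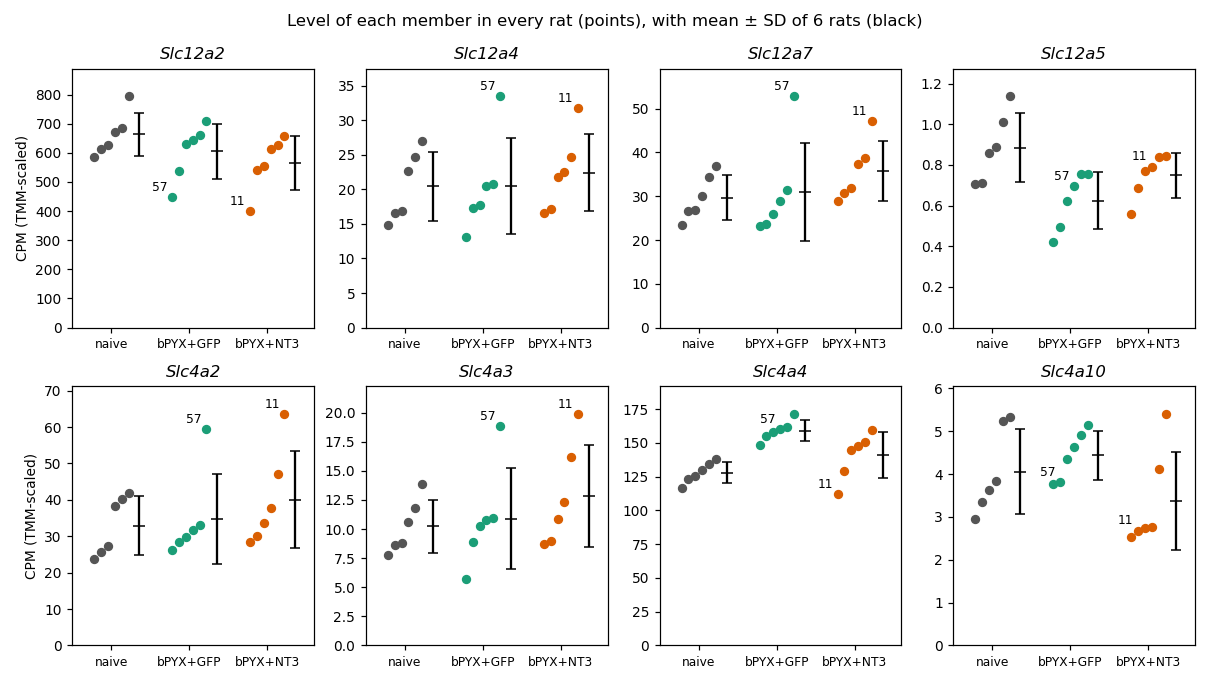
CPM (vertical axis from 0, TMM-scaled, a separate scale for each gene) of the 8 members with a row in the count table, in every rat, by group. Points are rats, black marks are the mean ± SD of 6 rats, and rats 57 and 11 are labelled. The bPYX+GFP rats lie above the naïve rats in *Slc4a4*, while rats 57 and 11 are the highest of their groups in *Slc12a4*, *Slc12a7*, *Slc4a2* and *Slc4a3* and the lowest in *Slc12a2*.

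The other sodium-bicarbonate cotransporters were scarce or had no level here. *Slc4a10* (NM_178092), encoding NBCn2, a transporter of neurons, had a median of 3.73 CPM in naïve rats (2.95 to 5.33), 4.49 CPM in bPYX+GFP rats (3.77 to 5.14) and 2.75 CPM in bPYX+NT3 rats (2.52 to 5.40), from 33 to 89 reads per rat. In bPYX+NT3 rats, 4 of the 6 values lay below every bPYX+GFP rat and 1, that of rat 23, above all of them. In the vector comparison *Slc4a10* had a log2 fold change of -0.40 (SE 0.199), for which edgeR gave p = 0.0629 (adjusted p = 0.851) and the exact permutation test p = 0.0498. Without rat 23 it was -0.58 and passed in edgeR, as it also did without rat 2. Relative to naïve rats, *Slc4a10* differed by 0.13 (SE 0.166, edgeR p = 0.450, exact permutation p = 0.355) in the bPYX+GFP group and by -0.28 (SE 0.223, edgeR p = 0.234, exact permutation p = 0.229) in the bPYX+NT3 group, the latter reaching -0.45 and passing without rat 23. *Slc4a7*, encoding NBCn1, is listed at 0 in each of the 18 rats under all 3 of its identifiers (NM_058211, NM_001270860 and NM_001270861). Where a symbol has 2 or more identifiers, 58.2% of the 1288 identifiers were at 0 in all rats, against 10.3% of the 15223 identifiers that are alone for their symbol, and HTSeq counts no read that falls on several identifiers. No level of *Slc4a7* can therefore be read from these counts.

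*Slc12a2* (NM_031798), the chloride importer NKCC1, had between 5688 and 9823 reads per rat. Its level was 585, 615, 626, 672, 687 and 794 CPM in naïve rats, 448, 538, 629, 645, 661 and 710 CPM in bPYX+GFP rats and 399, 541, 553, 615, 628 and 658 CPM in bPYX+NT3 rats. The groups overlapped, the lowest bPYX+GFP rat being rat 57 and the lowest bPYX+NT3 rat being rat 11. Relative to naïve rats, *Slc12a2* had a log2 fold change of -0.13 in the bPYX+GFP group (SE 0.104, edgeR p = 0.226, exact permutation p = 0.277) and of -0.23 in the bPYX+NT3 group (SE 0.112, edgeR p = 0.0593, exact permutation p = 0.0649), where 3 of 6 rats lay below every naïve rat. In the vector comparison it was -0.097 (SE 0.124, edgeR p = 0.446, exact permutation p = 0.522). Without rat 11 the difference of the bPYX+NT3 group from naïve rats was -0.15 and did not pass, and without rat 23 it was -0.28 and passed. It also passed without rat 42, 39 or 40, so that the call depended on which rats were in the fit.

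The chloride exporters among the members were *Slc12a4* (NM_019229, KCC1, found in many cell types), *Slc12a7* (NM_001013144, KCC4) and *Slc12a5* (NM_134363, KCC2, the main exporter of central neurons). *Slc12a4* had a median of 19.8 CPM in naïve (14.8 to 27.0), 19.1 CPM in bPYX+GFP (13.1 to 33.5) and 22.1 CPM in bPYX+NT3 rats (16.5 to 31.8), and its log2 fold changes lay between 0.010 and 0.13 in the 3 comparisons, with SE between 0.180 and 0.215 and the smallest edgeR p at 0.481 (smallest exact permutation p = 0.517). *Slc12a7* had a median of 28.4 CPM in naïve (23.4 to 36.9), 27.4 CPM in bPYX+GFP (23.2 to 52.8) and 34.6 CPM in bPYX+NT3 rats (28.9 to 47.3). All 6 bPYX+NT3 rats lay above the naïve median of *Slc12a7* and 3 above the naïve range, a log2 fold change of 0.27 (SE 0.134, edgeR p = 0.0675, exact permutation p = 0.102). It passed without rat 41, 42, 39 or 40, at 0.31 to 0.34, and was 0.17 without rat 11. Its difference was 0.069 (SE 0.193) in bPYX+GFP against naïve rats and 0.20 (SE 0.200, edgeR p = 0.325, exact permutation p = 0.271) in the vector comparison. The highest bPYX+GFP value of *Slc12a7* was that of rat 57, and without it the last difference was 0.43 and passed, in a fit in which 2291 of all genes passed. Without both rat 57 and rat 11 it was 0.33 (SE 0.107) and passed, beside 1462 of all genes.

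*Slc12a5* was near the limit of the counts, with 5 to 19 reads per rat. Its level was 0.71, 0.71, 0.86, 0.89, 1.01 and 1.14 CPM in naïve rats, 0.42, 0.49, 0.62, 0.69, 0.75 and 0.76 CPM in bPYX+GFP rats and 0.56, 0.69, 0.77, 0.79, 0.84 and 0.84 CPM in bPYX+NT3 rats. The naïve median was above all 6 bPYX+GFP rats, and 4 of them were below the naïve range. The gene had too few reads to enter the bPYX+GFP fits. For bPYX+GFP against naïve rats the exact permutation p was 0.0173, the lowest of the 21 such tests made on 7 members, and with no filter on low counts edgeR gave -0.51 on the log2 scale (SE 0.229, p = 0.0536). In bPYX+NT3 against naïve rats *Slc12a5* differed by -0.25 (SE 0.195, edgeR p = 0.286, exact permutation p = 0.143), and in the vector comparison the exact permutation p was 0.119. At this depth a difference of *Slc12a5* of a few reads per rat sets the fold, and the counting error of single rats is large.

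The anion exchangers *Slc4a2* (NM_017048, AE2, found in most cells) and *Slc4a3* (NM_017049, AE3, found in neurons and heart) had overlapping groups in every comparison. *Slc4a2* had a median of 32.8 CPM in naïve (23.8 to 42.02), 30.7 CPM in bPYX+GFP (26.3 to 59.4) and 35.7 CPM in bPYX+NT3 rats (28.3 to 63.5). *Slc4a3* had a median of 9.70 CPM in naïve (7.76 to 13.8), 10.5 CPM in bPYX+GFP (5.73 to 18.8) and 11.6 CPM in bPYX+NT3 rats (8.73 to 19.9). The highest value of each gene was that of rat 57 in the bPYX+GFP and of rat 11 in the bPYX+NT3 group. The log2 fold changes of *Slc4a2* were 0.088 (SE 0.209) for bPYX+GFP against naïve rats, 0.28 (SE 0.205, edgeR p = 0.188, exact permutation p = 0.288) for bPYX+NT3 against naïve rats and 0.20 (SE 0.235) in the vector comparison. Those of *Slc4a3* were 0.099 (SE 0.235), 0.32 (SE 0.210, edgeR p = 0.147, exact permutation p = 0.238) and 0.23 (SE 0.271) in the same order. In the vector comparison *Slc4a2* differed by 0.43 without rat 57 and passed, in the same fit that called 2291 of all genes, by 0.016 without rat 11 and by 0.25 without both rats, neither of which passed. Without rat 11 the differences from naïve rats in the bPYX+NT3 group were 0.11 for *Slc4a2* and 0.16 for *Slc4a3*. Without rat 57 the differences from naïve rats in the bPYX+GFP group were below 0 for both genes and for *Slc12a4* and *Slc12a7*, between -0.20 and -0.14.

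Counted over the members other than *Slc4a4*, the unadjusted edgeR p was under 0.05 for 0 of 6 tested in bPYX+GFP against naïve rats, 0 of 7 in bPYX+NT3 against naïve rats and 0 of 6 in the vector comparison. The shares of all genes tested that did were 3.25%, 6.01% and 1.73%, and with adjustment over all genes 0 passed in any comparison, against 16, 0 and 0 by DESeq2's Wald test. By DESeq2 the counts of members were also 0 at an unadjusted p under 0.05, and by the exact permutation test they were 1 (*Slc12a5*), 0 and 1 (*Slc4a10*). Apart from *Slc4a4*, no member had groups without overlap, as 0.265% of all genes had in bPYX+NT3 against naïve rats (0.12% higher) and 0.0602% in the vector comparison (0.0602% higher). The standard errors of *Slc12a4*, *Slc12a7*, *Slc4a2* and *Slc4a3* in bPYX+GFP against naïve rats, 0.193 to 0.235, were above the median of 0.113 over all genes tested. In this fit a change of the size seen for *Slc4a4* could therefore not be told from the spread between rats in these 4 genes. With the share of read-pairs on no feature as a covariate, their standard errors were 0.074 to 0.131.

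**Figure D2:**
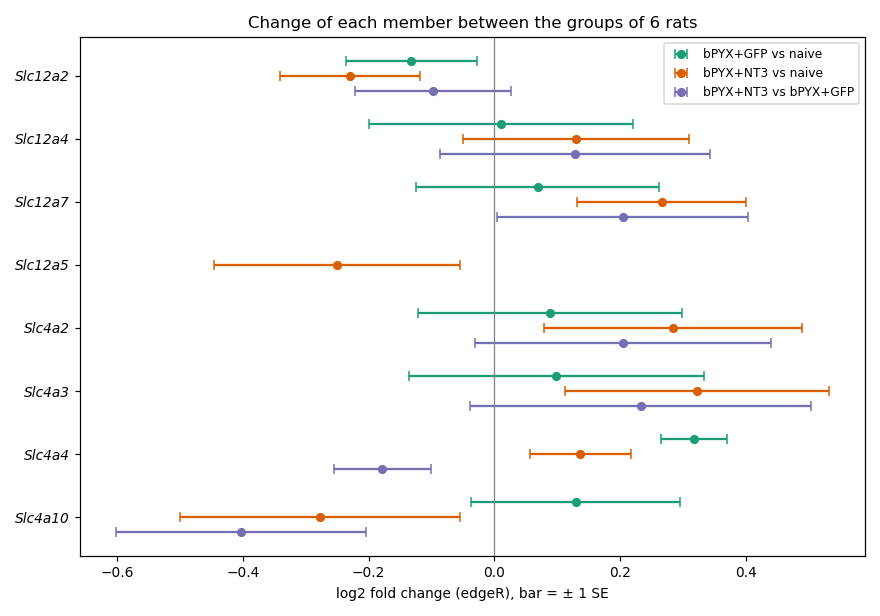
Log2 fold change of each member (horizontal axis) with bars of ± 1 SE from edgeR, for bPYX+GFP against naïve rats, bPYX+NT3 against naïve rats and the vector comparison of bPYX+NT3 with bPYX+GFP rats. *Slc12a5* is shown for the comparison in which it had enough reads. The bars of *Slc4a4*, with SE from 0.053 to 0.080, are shorter than those of the other members.

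Rats within a group differed together in 5 of the members. With each rat taken as its log2 CPM less the mean of its group, *Slc12a4*, *Slc12a7*, *Slc4a2* and *Slc4a3* correlated with each other over the 18 rats with Pearson's r between 0.85 and 0.95, and *Slc12a2* correlated with these 4 at r between -0.87 and -0.79. The points share the libraries and their depth, so r is given as a description with no p. For example, *Slc12a4* and *Slc4a2* had r = 0.95 (Spearman's rho 0.96), and 0.92 without rats 57 and 11. *Slc12a2* and *Slc4a2* had r = -0.87 (rho -0.78), and -0.71 without these rats. For *Slc4a4*, r with the 4 genes lay between -0.29 and -0.18, and between -0.0089 and 0.18 without rats 57 and 11. With *Slc12a2* it was 0.47, and 0.16 without these rats.

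These deviations followed the share of read-pairs on no annotated feature. Against that share, also taken less the group mean, *Slc12a2* had r = 0.93 (rho 0.90) over the 18 rats, while *Slc4a2* had r = -0.90, *Slc12a4* -0.86, *Slc12a7* -0.84 and *Slc4a3* -0.82. The relation was found within each group of 6 rats, at 0.89, 0.92 and 0.97 for *Slc12a2* in naïve, bPYX+GFP and bPYX+NT3 rats and between -0.96 and -0.79 for the other 4 genes. Rats 11 and 57 lay farthest out, and without them r was 0.82 for *Slc12a2* and between -0.79 and -0.65 for the others. Such values were common in these libraries: 35.9% of 11543 genes had an r above 0.8 or below -0.8 with this share, and 4.58% had one as far from 0 as that of *Slc12a2*. *Slc4a4* had r = 0.44, and 0.084 without rats 11 and 57. Its r was 0.94 in bPYX+NT3 rats and -0.27 and -0.26 in the naïve and bPYX+GFP rats. Once the share was a covariate of the fit, *Slc4a4* had log2 fold changes of 0.31 (SE 0.045), 0.19 (SE 0.066) and -0.15 (SE 0.063) in the order of the comparisons above. *Slc12a2* then had -0.12 (SE 0.050), which passed in edgeR, -0.10 (SE 0.048) and 0.027 (SE 0.050), which did not. *Slc12a4*, *Slc12a7*, *Slc4a2* and *Slc4a3* lay between -0.079 and 0.12 in every comparison of that fit. The part of the share in the differences without the covariate was not tested further.

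**Figure D3:**
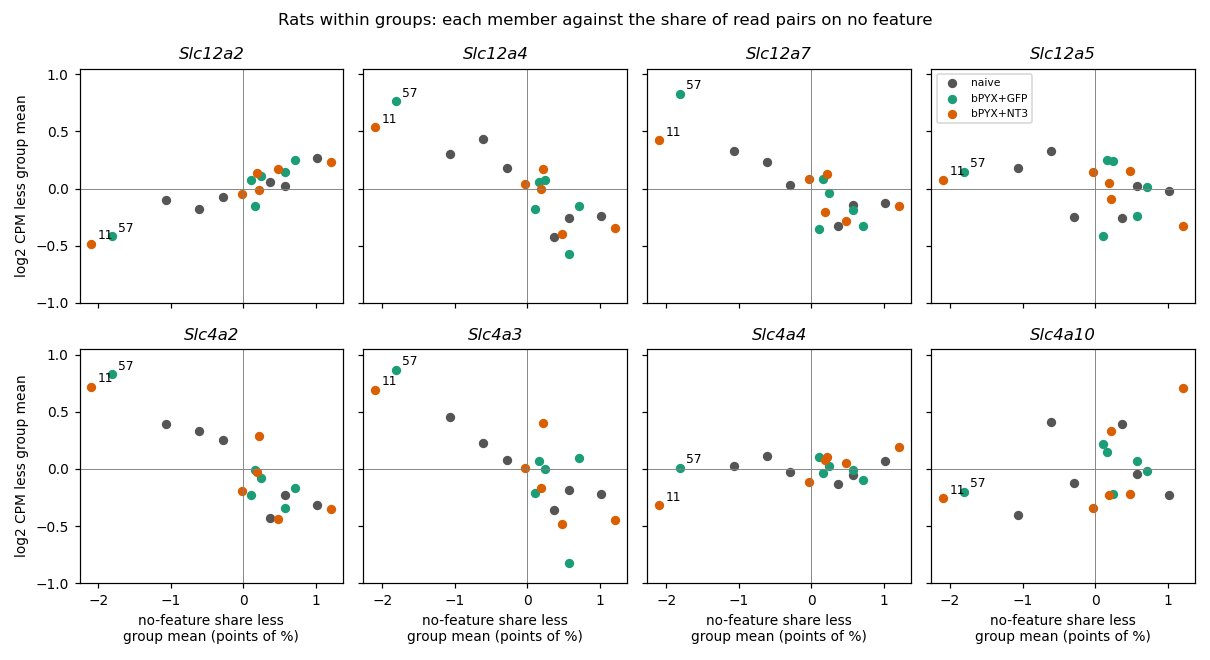
Log2 CPM of each member less the mean of the rat's group (vertical axis) against the share of read-pairs on no annotated feature less the group mean, in percentage points (horizontal axis). Each point is 1 of 18 rats, coloured by group, with rats 57 and 11 labelled. *Slc12a2* goes up with the share (r = 0.93), *Slc12a4*, *Slc12a7*, *Slc4a2* and *Slc4a3* go down (r from -0.90 to -0.82), and *Slc4a4* and *Slc4a10* are more scattered (r = 0.44 and 0.39), although *Slc4a4* follows the share among the bPYX+NT3 rats (r = 0.94).

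The windows of 250 bases before the RefSeq starts of these genes are shown for the 4 members that varied together and for *Slc4a4*, whose r with them was weaker. They are from RefSeq in build GRCr8, 5′ to 3′ on the strand of the gene, whereas the counts were made on Rnor_6.0. They lie at chr19:50770123-50770372 (minus strand) for *Slc12a4*, chr1:31354626-31354875 (minus strand) for *Slc12a7*, chr4:11645403-11645652 (minus strand) for *Slc4a2*, chr9:84485405-84485654 (plus strand) for *Slc4a3* and chr14:19468283-19468532 (minus strand) for *Slc4a4*. Capitals mark matches to a GC box (GGGCGG, or CCGCCC on the other strand, overlaps counted) and to an E-box (CACGTG); the CCAAT box (CCAAT or ATTGG), the TATA box (TATAAA or TTTATA) and the cAMP response element (TGACGTCA) were also searched.
Slc12a4: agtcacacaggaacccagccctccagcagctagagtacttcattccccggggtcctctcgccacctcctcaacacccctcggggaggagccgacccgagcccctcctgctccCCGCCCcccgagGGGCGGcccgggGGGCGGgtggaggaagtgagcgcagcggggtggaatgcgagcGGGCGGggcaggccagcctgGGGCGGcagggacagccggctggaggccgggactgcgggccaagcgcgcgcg
Slc12a7: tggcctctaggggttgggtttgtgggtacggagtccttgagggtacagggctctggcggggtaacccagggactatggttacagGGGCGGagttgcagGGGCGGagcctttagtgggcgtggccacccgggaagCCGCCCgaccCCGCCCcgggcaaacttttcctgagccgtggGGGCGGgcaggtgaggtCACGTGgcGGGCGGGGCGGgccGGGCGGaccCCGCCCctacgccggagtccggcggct
Slc4a2: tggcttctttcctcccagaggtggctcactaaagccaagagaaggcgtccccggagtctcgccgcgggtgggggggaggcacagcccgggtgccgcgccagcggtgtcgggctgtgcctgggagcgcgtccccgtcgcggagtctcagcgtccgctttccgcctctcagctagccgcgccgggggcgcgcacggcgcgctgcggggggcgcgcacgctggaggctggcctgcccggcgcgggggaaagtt
Slc4a3: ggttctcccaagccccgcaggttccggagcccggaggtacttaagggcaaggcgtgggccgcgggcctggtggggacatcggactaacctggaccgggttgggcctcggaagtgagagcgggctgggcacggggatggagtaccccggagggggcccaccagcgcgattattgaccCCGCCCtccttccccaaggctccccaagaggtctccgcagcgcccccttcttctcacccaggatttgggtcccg
Slc4a4: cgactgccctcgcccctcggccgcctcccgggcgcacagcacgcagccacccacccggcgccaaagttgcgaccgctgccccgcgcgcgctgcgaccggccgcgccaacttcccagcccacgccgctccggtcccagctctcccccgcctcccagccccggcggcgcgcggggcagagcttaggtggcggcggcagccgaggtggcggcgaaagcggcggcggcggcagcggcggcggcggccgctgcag
The GC box was found 5 times before *Slc12a4*, 9 times before *Slc12a7*, 1 time before *Slc4a3* and not before *Slc4a2* or *Slc4a4*. Of the 33469 windows of all genes, 30.5% hold at least 1 GC box and 5.59% an E-box, which among these 5 genes stood only before *Slc12a7*. None of the 5 windows held the CCAAT box (34.0% of all windows), the TATA box (12.9%) or the cAMP response element (1.59%). The 5 windows were 74.8%, 71.6%, 74.4%, 68.4% and 80.8% G and C in the order printed, against a median of 51.2% over all windows, and 0.858% of all windows were as rich as that of *Slc4a4*. These are matches of letters, and none of the motifs searched stood before all 4 genes that varied together.

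The genes whose deviations from the group means were most like those of *Slc4a4* over the 18 rats, among 11542 genes tested in all comparisons, were *Tp53inp1* (r = 0.85), the voltage-gated calcium channel gene *Cacna1c* (r = 0.83), an identifier with no paired symbol (NM_022933, r = 0.80), *Cmtm4* (r = 0.78) and the guanine deaminase gene *Gda* (r = 0.77). In bPYX+GFP against naïve rats the log2 fold changes of these genes were 0.22, 0.061, -0.0065, -0.21 and 0.022, against 0.32 for *Slc4a4*.

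Among the genes that work with these transporters, 7 lists held 97 names, of which 79 had 1 identifier in the counts, 11 had too few reads for every fit and 68 were tested in each comparison. In bPYX+GFP against naïve rats 1 was higher and 2 lower at an unadjusted p under 0.05 (4.41%), where 0.733% of all genes were higher and 2.52% lower. In bPYX+NT3 against naïve rats 3 were higher and 5 lower (11.8%), where 3.09% of all genes were higher and 2.92% lower. In the vector comparison 1 was lower (1.47%), where 1.08% of all genes were higher and 0.654% lower. The medians of their log2 fold changes were 0.019, 0.052 and 0.027, against 0.012, 0.00051 and 0.0049 over all genes. Every adjusted edgeR p of these genes was over 0.05. When the share of read-pairs on no feature was a covariate, the calls of *Slc9a3* and *Slc9a5* in bPYX+GFP rats, of *Car13* and *Ano1* in bPYX+NT3 against naïve rats and of *Slc26a7* in the vector comparison were made again, and the other 7 were lost: *Car1* in both bPYX groups (-1.54 and -1.32), and in bPYX+NT3 against naïve rats *Slc12a9* (0.27), *Car3* (-1.86), *Car12* (0.68), *Slc9a3* (-0.47) and *Cftr* (-0.37).

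Of the other SLC12 and SLC4 members, 5 of 10 were tested. *Slc12a3*, the thiazide-sensitive sodium-chloride cotransporter, had medians of 15.8, 14.5 and 15.3 CPM in naïve, bPYX+GFP and bPYX+NT3 rats and did not pass. *Slc12a9*, a relative whose transport is little known, rose in bPYX+NT3 against naïve rats by 0.59 on the log2 scale (SE 0.255, edgeR p = 0.0372, exact permutation p = 0.0476), and without rat 11 the value was 0.36. Its r with the share of read-pairs on no feature was -0.94, and with that share as a covariate the value was 0.27 and did not pass. The call was lost without rat 43, 44, 45, 49, 2 or 11. *Slc4a1*, the anion exchanger of red cells, ranged from 1.98 to 28.9 CPM in naïve, 1.24 to 5.73 CPM in bPYX+GFP and 0.842 to 8.18 CPM in bPYX+NT3 rats, highest in rat 44.

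Of the kinases that act on NKCC1 and the KCCs and of their partners, 8 of 11 were tested and none had a p under 0.05 in any comparison. The others were the kinase gene *Wnk1*, which has several identifiers, and *Klhl2* and *Klhl3*, which have none in the counts. No change of *Wnk1* can be read here. Those with the highest levels were *Cab39* (medians of 795, 787 and 750 CPM in naïve, bPYX+GFP and bPYX+NT3 rats) and the kinase gene *Stk39*, encoding SPAK (660, 647 and 621 CPM). Their log2 fold changes lay between -0.084 and 0.019.

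Carbonic anhydrases make the bicarbonate that SLC4 proteins carry, and 11 of 16 were tested. The most abundant in these libraries, *Car2* (medians of 150, 150 and 144 CPM) and *Car5b* (25.1, 24.2 and 24.4 CPM), did not pass. *Car13* fell in bPYX+NT3 against naïve rats by 0.38 on the log2 scale (SE 0.131, edgeR p = 0.0109, exact permutation p = 0.0152) and kept its call in 12 of 12 fits without 1 rat, while *Car12*, a membrane-bound form, rose by 0.68 (SE 0.303, edgeR p = 0.0412, exact permutation p = 0.0390) and passed in 5 of 12, failing without rat 42, 43, 44, 45, 11, 39 or 40. *Car1*, abundant in red cells, was lower in both bPYX groups, with log2 fold changes of -1.62 (edgeR p = 0.0472, exact permutation p = 0.175) and -1.64 (edgeR p = 0.0430, exact permutation p = 0.197). *Car3*, a form of muscle and fat, had a log2 fold change of -1.94 in bPYX+NT3 rats (edgeR p = 0.0327, exact permutation p = 0.377). These 3 values moved most without naïve rat 44, which had 15.7 CPM of *Car1*, where the next naïve rat had 4.31, and 19.2 CPM of *Car3*. Without it they were -0.54, -0.56 and -1.22, and none passed. Each was also lost without rat 42 or without some of the rats of the bPYX group compared, passing in 5, 6 and 6 of 12 fits. The same rat held the highest level of *Slc4a1* (28.9 CPM).

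Of the sodium-proton exchangers 5 of 9 were tested. *Slc9a3*, encoding NHE3, had a median of 34.5 CPM in naïve rats. It was lower in bPYX+GFP rats (24.3 CPM), with a log2 fold change of -0.55 (SE 0.199, edgeR p = 0.0155, exact permutation p = 0.0519, in 12 of 12 fits without 1 rat), and in bPYX+NT3 rats (25.4 CPM), with one of -0.52 (SE 0.237, edgeR p = 0.0451, exact permutation p = 0.0866, in 5 of 12 fits, failing without rat 41, 43, 49, 11, 17, 23 or 39). *Slc9a5*, encoding NHE5, rose in bPYX+GFP rats by 0.33 (SE 0.119, edgeR p = 0.0159, exact permutation p = 0.0108, in 12 of 12 fits). The abundant *Slc9a9* (medians of 447, 466 and 445 CPM) did not pass. Of the SLC26 anion exchangers 7 of 11 were tested. *Slc26a7* fell in bPYX+NT3 against bPYX+GFP rats by 0.35 on the log2 scale (SE 0.151, edgeR p = 0.0346, exact permutation p = 0.0606) and passed in 6 of 12 fits without 1 rat, failing without rat 15, 18, 2, 11, 17 or 40, and *Slc26a2*, a sulphate carrier (medians of 19.0, 20.7 and 18.8 CPM), did not pass.

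Among chloride channels 22 of 26 were tested. *Ano1*, a calcium-activated channel of nociceptors, rose in bPYX+NT3 against naïve rats by 0.23 on the log2 scale (SE 0.091, edgeR p = 0.0214, exact permutation p = 0.0238, in 12 of 12 fits without 1 rat), and *Cftr* fell by 0.45 (SE 0.178, edgeR p = 0.0251, exact permutation p = 0.0238, in 9 of 12 fits, failing without rat 42, 44 or 11) from a median of 3.44 CPM. The intracellular exchangers *Clcn4* (medians of 399, 384 and 376 CPM) and *Clcn3* (383, 381 and 364 CPM) had the highest levels and did not pass. Of the sodium pump subunits, which keep the gradients the cotransporters run on, 10 of 14 were tested and none passed. *Atp1b1* had medians of 1670, 1738 and 1643 CPM.

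**Figure D4:**
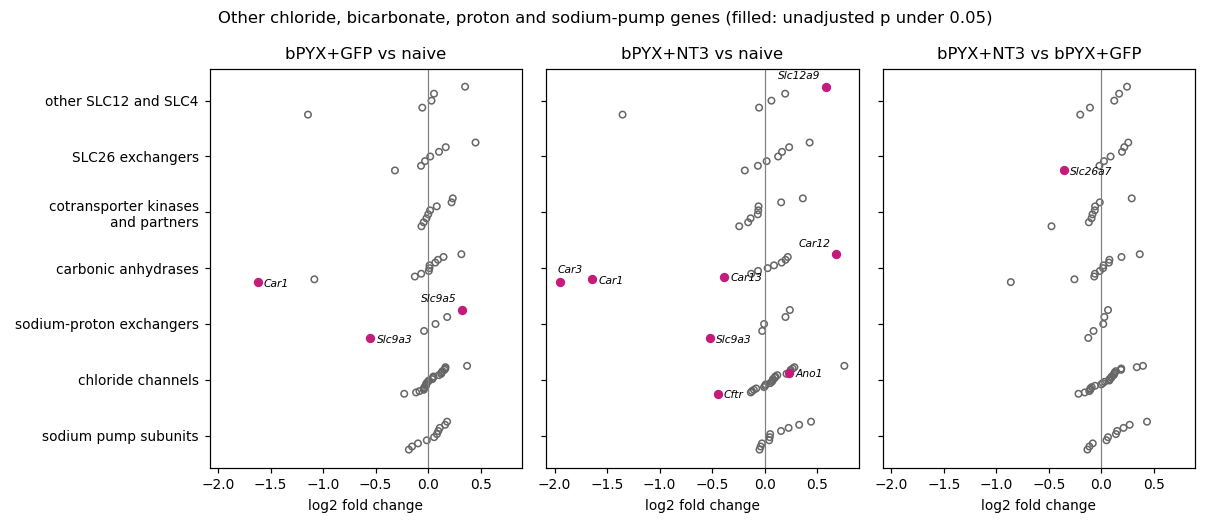
Log2 fold changes (horizontal axis) of the 68 tested genes of 7 lists (rows) in the 3 comparisons. Each circle is a gene, filled and named where the unadjusted edgeR p was under 0.05, which was so for 3, 8 and 1 genes. Most genes lie near 0, and *Car1* and *Car3*, which moved most without naïve rat 44, lie farthest out among those named.

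Markers of the cells that make up a ganglion were measured beside these genes. The 9 neuronal markers with 1 identifier summed to between 10905 and 14281 CPM in a rat, so that the tissue carries its defining markers. Of them 1 (*Avil*) was higher in bPYX+NT3 than in naïve rats, where 3.09% of all genes were, and passed in 7 of 12 fits without 1 rat. In this comparison 7 of the 9 had log2 fold changes above 0. With the share of read-pairs on no feature as a covariate, *Avil* was at 0.13 and did not pass. The calls of *Dcn* and *Adipoq* in the same comparison were also lost with it. Those of large and proprioceptive neurons summed to 813 to 1099 CPM with 0 of 2 tested passing, and their defining receptor gene *Ntrk3* is listed at 0 under its several identifiers. Of 7 myelinating Schwann cell markers, 4 were lower in bPYX+GFP and 3 in bPYX+NT3 than in naïve rats at an unadjusted p under 0.05. Among all genes tested, 2.52% and 2.92% were lower in these comparisons. The summed level of the Schwann cell markers was 3052 to 4731 CPM in naïve, 2427 to 3395 in bPYX+GFP and 2916 to 3447 in bPYX+NT3 rats. Of 5 fibroblast markers 3 were lower in each injured group, with sums of 2214 to 2987, 2042 to 2645 and 1626 to 2852 CPM, and *Col1a2* is listed at 0. *Col1a1* and *Col3a1* passed in 12 of 12 fits without 1 rat in both groups. *Lum* in bPYX+GFP and *Dcn* in bPYX+NT3 rats passed in 7 and 4 of 12, each with an exact permutation p = 0.0693. Of 4 satellite glia markers 0 passed in bPYX+GFP against naïve rats and *Kcnj10* was higher in bPYX+NT3 than in bPYX+GFP rats, with sums of 1786 to 2037, 1483 to 1893 and 1502 to 1835 CPM. Sums for endothelium were 156 to 206, 176 to 198 and 157 to 236 CPM, with *Flt1* higher in bPYX+NT3 than in naïve rats (in 8 of 12 fits without 1 rat). Those for macrophages were 52.3 to 103, 38.1 to 76.9 and 47.9 to 109 CPM, with 0 of 4 passing and *Ptprc* listed at 0 under its several identifiers. Adipocyte markers ranged from 1.82 to 78.6 CPM, with the log2 fold changes in the vector comparison at -2.11 for *Adipoq* (-1.55 without rat 5) and -2.05 for *Fabp4*, which did not pass without rat 5 (-0.78). In bPYX+NT3 against naïve rats *Adipoq* was at -1.85, and its call was lost without rat 44 (-1.14), 2 or 40. The exact permutation test gave p = 0.130, p = 0.141 and p = 0.214 for these 3 differences. The genes listed for spinal cord glia summed to 14.4 to 44.1 CPM in a rat, and *Aqp4* is listed at 0 under its several identifiers. *Gfap* was lower in bPYX+GFP than in naïve rats and higher in bPYX+NT3 than in bPYX+GFP rats. *Mog* was lower in bPYX+NT3 than in naïve rats. Whether the reads of these genes came from cord tissue or from glia of the ganglion was not tested. The part of these cells in the level of *Slc4a4* was not tested.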

How the data were processed

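Poly(A) RNA from C6-C8 DRG was sequenced as 50 bp paired-end reads. The authors mapped reads with TopHat2 to Rnor_6.0, removed duplicates with Picard and deposited raw HTSeq counts per RefSeq identifier, with no normalization (bcl2fastq 1.8.4 made the reads, per the submitters' processing notes). Read-pairs on no feature, on several features or at several locations were 33.3%, 2.95% and 21.1% on average and were left out of library sizes. Symbols were paired with 14193 of 15075 identifiers through RefSeq.

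Rats were grouped by the heading of the count table. Each pair of groups was fitted in edgeR 4.0.16 (R 4.3.3; TMM, quasi-likelihood test, a gene entering with over 10 reads in 6 or more of 12 rats), with Benjamini-Hochberg adjustment over all genes; a call is an unadjusted p under 0.05. The exact permutation test (2-sided, on log2 CPM with a prior count of 2) can go no lower than p = 0.00216. DESeq2 1.42.0, likelihood ratio tests, other filters, normalizations, groupings and covariates were alternatives. The scripts were tested on simulated data. Python 3.11.15, pandas 2.3.3, numpy 2.4.6 and scipy 1.17.1 were also used. Ganglia of 1 rat were pooled and rats were not, so p-values measure the spread between rats.

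The members and lists were chosen with earlier results of these data known. Named are all members, pathway genes with an unadjusted p under 0.05 in any comparison, the 2 pathway genes of highest mean CPM in each list, and the 5 genes most correlated with *Slc4a4*. *Slc4a1* and the single marker genes were named after their values were seen. Some genes that these rules select are not reported here.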

Additional observations from a re-analysis of the deposited data

Results flagged for a closer look

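In bPYX+GFP rats, rat 57 stood apart from the other 5 in *Slc12a4* (33.46 CPM, the next rat at 20.7), *Slc12a7* (52.83 CPM, the next at 31.4) and *Slc4a2* (59.43 CPM, the next at 33.2). The gap to the next rat was 0.626, 0.723 and 0.791 of the range of the group, above Dixon's 95% critical value for 6 samples. Of 24 groups of values checked, 3 passed this limit, all from this 1 library, and chance passes about 1 in 20. Rat 57 also had the lowest share of read-pairs on no feature in its group (31.7%). The cause was not tested.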

How the results depend on the processing

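The number of members called, *Slc4a4* left out, was 0 in each comparison. Between bPYX+GFP and naïve rats it was 1 when the no-feature share was a covariate (*Slc12a2*) and 1 by the exact permutation test (*Slc12a5*), and 0 in all 12 fits without 1 rat. Between bPYX+NT3 and naïve rats it was 1 by the likelihood ratio test and 1 with library size alone (*Slc12a2* in both), 4 with the replicate block (*Slc12a2* at -0.24, *Slc12a7* at 0.26, *Slc4a2* at 0.27 and *Slc4a3* at 0.30), and 0 to 2 without 1 rat. In the comparison of the bPYX groups it was 1 by the exact permutation test (*Slc4a10*), 1 without rats 57 and 11 (*Slc12a7*, a fit chosen after seeing the data) and 0 to 2 without 1 rat, 2 being without rat 57. The causes were not tested.

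The number in the titles was not taken to pair the rats, since not every pair with the same number had r over 0.1 (2, 5 and 3 of 6 pairs, with r from -0.37 to 0.33, -0.31 to 0.55 and -0.43 to 0.53 in the order bPYX+GFP and naïve, bPYX+NT3 and naïve, bPYX+NT3 and bPYX+GFP), and 1, 3 and 1 of the 6 pairs correlated best with their own number. With this replicate block, added after seeing the data, 316, 2962 and 130 of all genes were called, against 377, 703 and 201 without it, and *Slc12a4* turned to -0.022 between bPYX+GFP and naïve rats.

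With the titles of the rats' own files as groups, most log2 fold changes turned. Given without and then with the replicate block, the values for bPYX+GFP against naïve rats were 0.15 and 0.17 for *Slc12a2*, -0.084 and -0.070 for *Slc12a4*, -0.086 and -0.043 for *Slc12a7*, -0.18 and -0.13 for *Slc4a2*, -0.31 and -0.27 for *Slc4a3*, 0.020 and 0.027 for *Slc4a4* and -0.046 and -0.062 for *Slc4a10*. For bPYX+NT3 against naïve rats, without and with the replicate block, they were 0.21 and 0.21 for *Slc12a2*, -0.19 and -0.24 for *Slc12a4*, -0.12 and -0.14 for *Slc12a7*, -0.23 and -0.26 for *Slc4a2*, -0.39 and -0.44 for *Slc4a3*, -0.084 and -0.082 for *Slc4a4* and 0.051 and 0.077 for *Slc4a10*. In the comparison of the bPYX groups, without and with the replicate block, they were 0.059 and 0.040 for *Slc12a2*, -0.11 and -0.15 for *Slc12a4*, -0.033 and -0.084 for *Slc12a7*, -0.054 and -0.12 for *Slc4a2*, -0.078 and -0.15 for *Slc4a3* and 0.099 and 0.13 for *Slc4a10*.

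When the no-feature share was a covariate, *Slc12a4* turned to -0.053, -0.079 and -0.055 in the 3 comparisons, *Slc12a7* to -0.0060 in bPYX+GFP against naïve rats, and *Slc12a2* to 0.027 and *Slc4a2* to -0.0099 in the comparison of the bPYX groups. This covariate raised the calls over all genes between bPYX+GFP and naïve rats from 377 to 848. Without 1 rat, values between bPYX+GFP and naïve rats lay between -0.20 and 0.10 for *Slc12a4*, -0.16 and 0.14 for *Slc12a7*, -0.15 and 0.17 for *Slc4a2*, -0.14 and 0.22 for *Slc4a3*, and 0.29 and 0.34 for *Slc4a4*, and in the comparison of the bPYX groups between -0.0069 and 0.33 for *Slc12a4*. *Slc12a4* was below 0 between bPYX+GFP and naïve rats without rat 44, 45, 49 or 57. Few reads limit *Slc12a5* (5 to 19 in a rat), and *Slc4a7* could not be measured.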
